A study of Homo sapiens with 12 samples.

Results

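The comparison described here asked what sorafenib added to cells that also received givinostat. The cells were of HDLM-2, an established human line derived from a Hodgkin lymphoma, and were treated for 24 hours with givinostat (100 nM) and sorafenib (5 µM) together, with givinostat (100 nM) alone, with sorafenib (5 µM) alone, or left as controls. Each group has 3 bead arrays, named A, B and C, so that the comparison rests on 6 of the 12 arrays: 3 of the combination and 3 of givinostat alone, chosen by the treatment in their labels. All 4 groups hold the same cell line and the same time, and the labels do not state a vehicle for the controls, nor whether the 3 arrays of a group came from separate cultures. Every p-value therefore measures only the spread between arrays, which may be technical, and with so few arrays the precision of each value is limited by their number. The 10529 genes with a detected probe were all tested.

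Givinostat inhibits histone deacetylases, enzymes that take acetyl groups off histones and other proteins, and such inhibitors change the transcription of many genes. Sorafenib inhibits RAF kinases and several receptor tyrosine kinases. RAF kinases act upstream of MEK and ERK, and ERK signalling drives the transcription of immediate early genes such as FOS and EGR1. Kinase inhibitors of this kind can also engage the integrated stress response, in which phosphorylation of the initiation factor eIF2 favours translation of the transcription factor ATF4, which in turn raises genes of amino acid synthesis and transport.

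The 6 arrays overlapped in mean signal between the groups, but each combination array had more probes above background than any givinostat array. Their mean non-normalized intensity was 1345.8 to 1462 units in the combination and 1270 to 1458 units with givinostat, and 17457 to 17934 probes were above background (detection p under 0.05) in the combination against 16522 to 17126 with givinostat. Over the 6 arrays, the combination arrays lay apart from the givinostat arrays on the first principal component (37.3% of the variance). Outside the 6, sorafenib array C stood apart from its group, with a root mean square deviation of 0.221 log2 units against 0.147 to 0.175 on the other 11 arrays, and the counts and changes with sorafenib alone are also given without it. Of 12 markers of HDLM-2 and Reed-Sternberg cells, 10 were above background in both groups, with a summed linear intensity of 98571 to 99638 in the combination and 84362 to 90891 with givinostat. Of 7 T cell markers, CD2 alone was above background in both groups (CD2 intensity 13401 to 14748 in the combination, 15539 to 17262 with givinostat). The CD3 genes, CD5, CD8A and CD28 were not above background and are not in these values. Of 5 B cell markers on the array, MS4A1 alone was above background in the combination and 0 were with givinostat (MS4A1 intensity 86 to 99 and 62 to 164). Of 6 myeloid markers, 4 were above background in the combination and 3 with givinostat, of 7 erythroid markers 3 and 2, and of 5 epithelial and 5 fibroblast markers 1 in each group. The part of these markers in the results was not tested.

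Sorafenib on top of givinostat gave a small number of calls, and 10 of the 15 with a fitted change of at least 2-fold were falls. Of 10529 genes, 141 passed limma's moderated test at a Benjamini-Hochberg adjusted p under 0.05 (1.34%), 89 of them higher (0.845%) and 52 lower (0.494%) in the combination. At an unadjusted p under 0.05 there were 1799. Fitted changes of at least 2-fold were seen in 15 genes (0.142%), 5 higher and 10 lower. Among the 5, ATXN7L1 was not above background with givinostat, and its rise is known only as at least 1.67-fold. The median size of the 141 changes was 0.64 log2 units, the median over all genes was -0.01, and the median standard error (SE) was 0.13. In all 141 genes the 3 combination arrays did not overlap the 3 givinostat arrays, as held for 25.7% of all genes tested. The signals come from bulk RNA, in which fewer cells of a type and less RNA per cell cannot be told apart. The number of calls depended on single arrays: it was 32 without givinostat array A, 78 without givinostat B, 51 without givinostat C, 58 without combination A, 40 without combination B, 47 without combination C and 231 without sorafenib C.

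**Figure D1:**
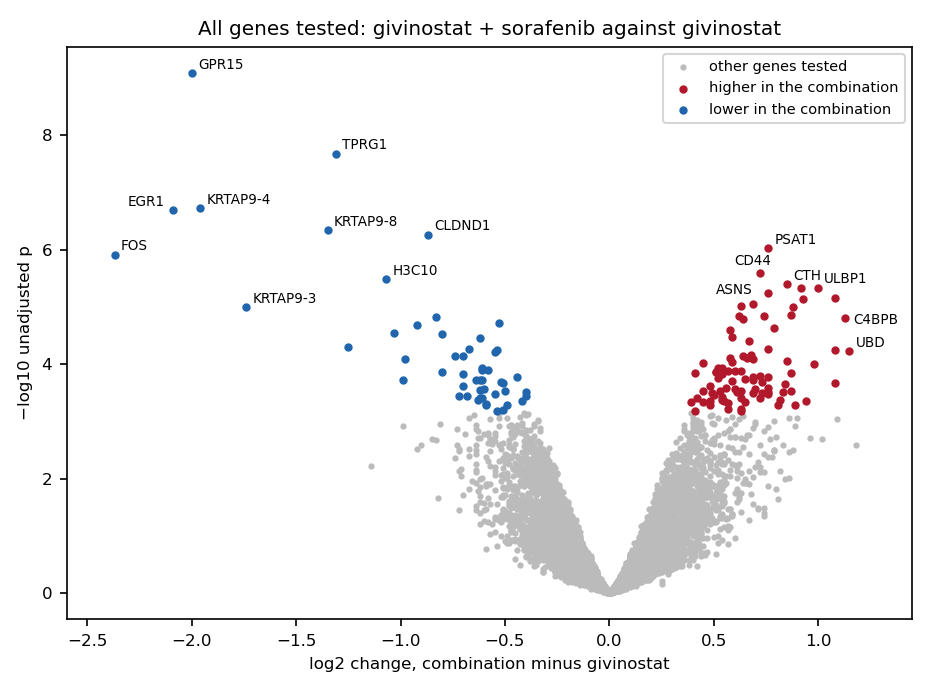
Each point is 1 of the 10529 genes tested, with its log2 change (combination minus givinostat) on the x axis and minus log10 of its unadjusted p on the y axis. The 89 genes higher and 52 genes lower in the combination at an adjusted p under 0.05 are coloured, and FOS, EGR1 and GPR15 lie farthest to the left.

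The immediate early genes FOS and EGR1 had the largest fitted falls. FOS encodes a subunit of the transcription factor AP-1, and EGR1 a zinc finger transcription factor, and both are induced within minutes when ERK is active. Their promoters are shown because these genes carry the largest fitted changes in the comparison. The sequences run from 250 bases before to 50 bases after the start of the gene (RefSeq, GRCh38.p14), 5′ to 3′ on the gene's strand, and capitals mark each match to the CArG box, the motif bound by serum response factor.

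EGR1 (chr5:138465229-138465528, + strand): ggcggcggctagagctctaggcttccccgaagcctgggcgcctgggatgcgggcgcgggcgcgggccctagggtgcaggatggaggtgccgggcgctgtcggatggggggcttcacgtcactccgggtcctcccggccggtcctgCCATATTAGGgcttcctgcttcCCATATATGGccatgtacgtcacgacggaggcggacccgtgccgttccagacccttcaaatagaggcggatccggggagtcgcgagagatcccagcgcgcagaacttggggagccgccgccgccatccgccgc

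FOS (chr14:75278578-75278877, + strand): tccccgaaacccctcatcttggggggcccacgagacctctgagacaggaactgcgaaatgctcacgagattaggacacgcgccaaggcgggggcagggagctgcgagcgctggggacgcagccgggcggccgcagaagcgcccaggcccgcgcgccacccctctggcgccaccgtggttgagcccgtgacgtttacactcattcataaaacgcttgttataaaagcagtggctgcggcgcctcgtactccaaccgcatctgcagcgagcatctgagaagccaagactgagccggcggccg

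The EGR1 window held 2 CArG boxes, whose first bases lie 105 and 83 bases before the start, and the FOS window held 0. A window without a match says only that these letters are not in those 300 bases. Of all 27305 promoters in the table, 1.29% held a CArG box on either strand, and of the 8661 promoters of genes tested, 1.1%. Among genes lower in the combination, 43 of 52 had a promoter in the table and 3 of the 43 held the motif (EGR1, G2E3 and H2BC21). Among the 76 promoters of genes higher in the combination, 0 held it. The EGR1 and FOS windows held 0 matches to the other motif searched below.

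FOS stood at 7.19, 5.95 and 6.57 normalized log2 units on the 3 combination arrays, against 9.16, 8.89 and 8.76 on the givinostat arrays. The lowest givinostat array lay well above the highest combination array, and 2 of 3 combination arrays were above background. The log2 change was -2.37 ± 0.27 (SE, n = 3 arrays per group), a 5.17-fold lower level (adjusted p = 0.0016). EGR1 stood at 7.37, 7.27 and 7.10 in the combination, against 9.54, 9.35 and 9.12 with givinostat, again without overlap. It was 4.26-fold lower (log2 change -2.09 ± 0.20, adjusted p = 5.35e-04).

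Set beside the other groups, both genes were highest with givinostat alone. FOS stood at 5.83, 6.22 and 5.71 with sorafenib alone, with 1 of 3 arrays above background, and at 7.46, 6.84 and 7.20 in controls. EGR1 stood at 6.56, 5.75 and 6.17 with sorafenib alone, also with 1 of 3 arrays above background, and at 7.22, 7.18 and 6.71 in controls. The combination arrays overlapped the control arrays for both genes: the log2 difference of the combination from control was -0.60 ± 0.27 for FOS (adjusted p = 0.0917) and 0.21 ± 0.20 for EGR1 (adjusted p = 0.42). These differences share the combination arrays with the main comparison. With sorafenib alone against control the changes were -1.24 ± 0.27 for FOS (adjusted p = 0.0261) and -0.88 ± 0.20 for EGR1 (adjusted p = 0.032). Without sorafenib array C they were -1.14 and -0.88, and neither passed (adjusted p = 0.0738 for FOS and 0.071 for EGR1). The difference between the change with and the change without givinostat did not pass for FOS (-1.13 ± 0.38, adjusted p = 0.32) or EGR1 (-1.21 ± 0.28, adjusted p = 0.174). Without background correction the falls over givinostat were smaller, -1.26 for FOS and -1.29 for EGR1, near the -1.23 of TPRG1, and all 3 still passed.

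Most tested genes of the ERK pathway list did not pass. Of 36 targets and feedback genes listed, 26 were tested, and FOSB, EGR2, NR4A1 and SPRY1, among others, were not. Of the 26, FOS and EGR1 fell (0.494% of all genes were lower) and JUN rose (0.845% were higher). The other tested genes did not pass, which does not show them unchanged. The list median was -0.06 beside -0.01 over all genes. JUN, which encodes the partner of FOS in AP-1, stood at 13.18, 13.39 and 13.50 in the combination against 12.87, 12.69 and 12.61 with givinostat (log2 change 0.63 ± 0.13, adjusted p = 0.0355). JUN was lost in 11 of 22 alternatives (another processing choice, or 1 array left out), among them without any 1 of the 6 compared arrays and without control B (adjusted p up to 0.134). JUND, another AP-1 gene, had a log2 difference of 0.39 ± 0.09 that just missed the threshold (adjusted p = 0.0516). The dual specificity phosphatase genes DUSP4 (-0.62), DUSP6 (-0.49) and DUSP5 (-0.39), which act on ERK and are induced by it, had negative values that did not pass. MYC did not pass either (-0.13 ± 0.11, adjusted p = 0.582), and a second MYC probe had the opposite sign (0.27 ± 0.17). Of 9 tested genes of RAF, MEK and ERK kinases and sorafenib's receptor targets, 0 passed, with log2 differences from -0.34 to 0.40.

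GPR15, which encodes a chemoattractant receptor that guides T cells to the gut, had the smallest p of all genes. It stood at 6.06, 5.94 and 5.74 in the combination, above background on 0 of 3 arrays, and at 7.95, 7.93 and 7.87 with givinostat, above background on 3 of 3. The fold against the background limit was at least 3.44-fold lower (fitted log2 change -2.00 ± 0.12, adjusted p = 8.6e-06). The level was 5.32, 5.44 and 5.56 with sorafenib alone and 5.81, 5.97 and 6.19 in controls, above background on 0 of 3 arrays in both. GPR15 was thus measured above background in the givinostat group only. The bound holds for background-corrected values, and without that correction the log2 change was -0.85. TPRG1, a gene named for its regulation by p63, stood at 10.84, 10.97 and 10.83 in the combination against 12.10, 12.24 and 12.24 with givinostat (log2 change -1.31 ± 0.10, adjusted p = 1.1e-04). Its level was 10.55, 10.49 and 10.25 with sorafenib alone and 11.12, 11.25 and 11.31 in controls, a fall of 0.80 ± 0.10 with sorafenib alone (adjusted p = 0.00165) and of 0.71 without sorafenib array C. The calls of GPR15 and TPRG1 held in all alternative settings run.

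**Figure D2:**
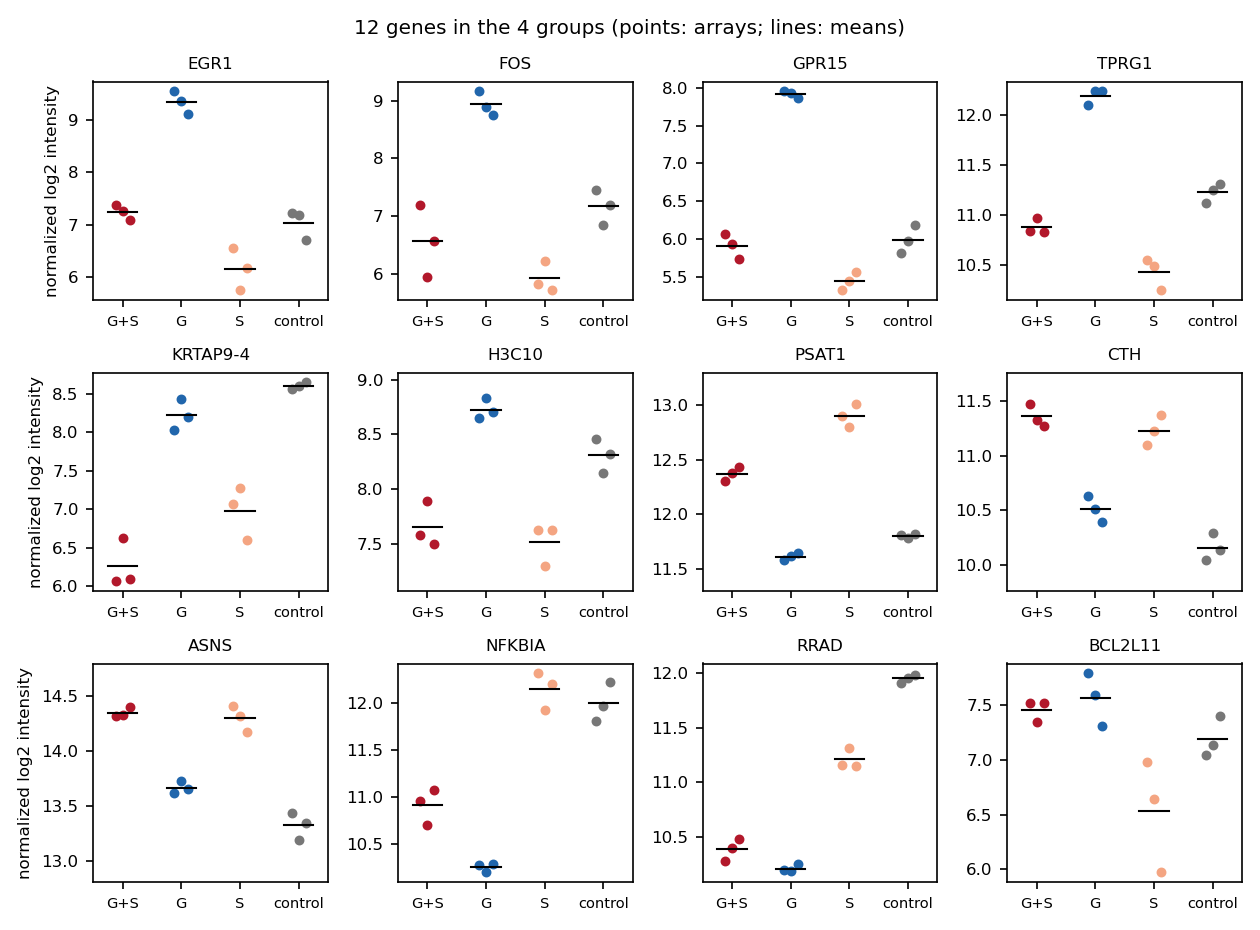
Normalized log2 intensity of 12 genes on each of the 12 arrays, by group from left to right: combination (G+S), givinostat (G), sorafenib (S) and control. Points are arrays, lines are group means, and each panel has its own y axis. FOS, EGR1 and GPR15 are highest with givinostat alone, whereas PSAT1, CTH and ASNS are higher in both groups that received sorafenib.

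Keratin-associated protein genes, which encode matrix proteins of the hair shaft, were among the largest falls. Of 7 tested, 4 fell and 0 rose, with a list median of -1.25, beside 0.494% lower and a median of -0.01 over all genes. The list was chosen with earlier results of these data known, so its counts are not independent of them. KRTAP9-4 stood at 6.06, 6.63 and 6.09 in the combination against 8.03, 8.44 and 8.20 with givinostat (log2 change -1.96 ± 0.19, adjusted p = 5.35e-04). KRTAP9-3 fell by 1.74 ± 0.24 on the log2 scale (adjusted p = 0.00527), and each of these 2 genes was above background on 1 of 3 combination arrays. KRTAP9-8 was above background on 0 of 3 combination arrays and was at least 2.08-fold lower (fitted log2 change -1.35 ± 0.14, adjusted p = 9.47e-04). The 3 KRTAP9 genes are near-identical in sequence, so which of them changed is uncertain, and their falls may be a single signal. KRTAP1-5 fell by 1.25 ± 0.20 (adjusted p = 0.0145), a call lost without givinostat A, combination B or combination C (adjusted p up to 0.0633). KRTAP17-1 (-0.04), KRTAP4-1 (-0.27) and KRTAP3-1 (0.35) did not pass. The KRTAP9 genes also fell with sorafenib alone, by 1.63 for KRTAP9-4, 2.15 for KRTAP9-3 and 1.60 for KRTAP9-8, and without sorafenib array C by 1.44, 1.94 and 1.55. Without background correction the falls over givinostat were -0.90 for KRTAP9-4, -0.73 for KRTAP9-3, -0.52 for KRTAP9-8 and -0.55 for KRTAP1-5, and all 4 passed.

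Histone genes held more falls than any other list. Of 43 tested, 7 fell and 0 rose, beside 0.494% lower over all genes. The median was -0.23, and 33 of 43 had a negative value, beside 52.8% of all genes. H3C10, a histone H3 gene, stood at 7.58, 7.89 and 7.50 in the combination against 8.65, 8.83 and 8.70 with givinostat (log2 change -1.07 ± 0.13, adjusted p = 0.0034). The others that fell were H4C8 (-0.80), H2BC21 (-0.72), H2AC18 (-0.70), H2AJ (-0.62), H1-2 (-0.61) and H2AC6 (-0.61), which encode histones H4, H2B, H2A and the linker histone H1. With sorafenib alone, 16 of the 43 fell and 0 rose (median -0.45), and 9 fell without sorafenib array C (median -0.36). The share of all genes lower with sorafenib alone was 1.59%. Without background correction the fall of H3C10 over givinostat was -0.65, which still passed. The replication-dependent histone genes are many and alike, and their probes can read related copies. Without givinostat A the calls of H4C8, H2AC18 and H2AC6 were lost, H4C8 and H2AC6 were lost without combination B, H2AC18 and H2AC6 without givinostat C or combination A, H2AC18 without combination C and H2AC6 without givinostat B (adjusted p up to 0.097). H2BC21, H2AJ and H1-2 were lost without any 1 of the 6 compared arrays or control C, and H1-2 also without control A or B (adjusted p up to 0.133). They were also lost with no detection filter, and H2BC21 with the array letter as a block. With only the 6 compared arrays H2AJ, H1-2 and H2AC6 were lost, and H2AJ also with median scaling.

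In the lists of the cell cycle, few genes passed. Among 44 genes of G1/S and DNA replication, 33 had a negative value (52.8% of all genes did), and the median was -0.09. In this list 0 rose and 1 fell, beside 0.494% lower over all genes. This was RRM2, the inducible subunit of ribonucleotide reductase, at 12.06, 12.44 and 12.08 in the combination against 13.04, 12.82 and 13.12 with givinostat (log2 change -0.80 ± 0.15, adjusted p = 0.022). RRM2 was lost without givinostat A or C or combination A or C (adjusted p up to 0.0944). Of 43 G2/M and mitosis genes, 0 passed (median -0.01), and MKI67, the proliferation marker gene, had a log2 difference of -0.24 ± 0.19 (adjusted p = 0.572). CDKN1A, a cyclin-dependent kinase inhibitor gene, was high in both givinostat groups, at 12.64, 12.92 and 12.62 in the combination and 12.88, 13.17 and 12.95 with givinostat, against 10.95, 11.02 and 10.59 with sorafenib alone and 11.09 on each control array. Its arrays overlapped between the combination and givinostat (log2 difference -0.27 ± 0.13, adjusted p = 0.306). A second CDKN1A probe had -0.75 ± 0.21 and did not pass in a fit by probe (adjusted p = 0.117).

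Genes of ribosome biogenesis and of mitochondrial ribosomal proteins had mostly small negative values, whereas those of cytosolic ribosomal proteins did not. Of 39 ribosome biogenesis genes, 3 fell and 0 rose, the median was -0.28, and 35 of 39 had a negative value, beside 0.494% lower and 52.8% negative over all genes. RRP9, a protein of the U3 particle that processes 18S ribosomal RNA, stood at 6.82, 7.02 and 7.07 in the combination against 7.98, 7.89 and 7.81 with givinostat (log2 change -0.92 ± 0.14, adjusted p = 0.00763). The other falls were in NOP16 (-0.51 ± 0.10) and UTP14A (-0.44 ± 0.08). RRP9 just missed the threshold without givinostat A (adjusted p = 0.0506), and NOP16 and UTP14A were lost without any 1 of the 6 compared arrays (adjusted p up to 0.106). NOP16 and UTP14A were also lost with no detection filter, and UTP14A with only the 6 compared arrays. Of 59 cytosolic ribosomal protein genes, RPL29 fell (-0.64 ± 0.12) and 0 rose, with a median of 0.02. A positive value was seen in 35 of the 59 and a negative value in 24. RPL29 was lost without any 1 of the compared arrays but givinostat C and with no detection filter (adjusted p up to 0.106). Of 30 proteasome genes, 0 passed, yet none had a value above 0 on the probe used and the median was -0.20. The range was from -0.69 for PSMD11 to 0.00 for PSME4. A second PSMC6 probe had 0.30 ± 0.19 and did not pass in a fit by probe (adjusted p = 0.495). Of 74 mitochondrial ribosomal protein genes, 0 passed, and 59 had a negative value (median -0.12). Without background correction the fall of RRP9 was -0.44, which still passed.

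The rest of the 15 largest falls belong to no single list. ERICH3 was 2.04-fold lower in the combination, at 7.10, 7.30 and 7.43 against 8.31, 8.19 and 8.43 with givinostat, and was above background on 0 of 3 arrays with sorafenib alone and in controls. HEPACAM2, an adhesion molecule gene of the immunoglobulin superfamily, fell by 0.98 ± 0.17 over givinostat (adjusted p = 0.0173). It was above background on 1 of 3 combination arrays and 3 of 3 givinostat arrays, and on 0 of 3 with sorafenib alone and in controls. Without background correction the falls were -0.56 for ERICH3 and -0.37 for HEPACAM2, and both passed. MIR503HG, the long noncoding host transcript of a microRNA, fell by 0.99 ± 0.19 (adjusted p = 0.025). CLDND1, a claudin domain membrane protein gene, stood at 13.91, 13.81 and 14.03 in the combination against 14.81, 14.76 and 14.79 with givinostat (log2 change -0.87 ± 0.09, adjusted p = 9.55e-04). The CLDND1 level in controls was 13.82, 13.88 and 13.95, which overlaps the combination. IRF5, a transcription factor gene that acts below Toll-like receptors, was instead lower on each combination array than on any array of the other groups, at 11.03, 10.85 and 10.81 against 11.69, 11.72 and 11.78 with givinostat (log2 change -0.83 ± 0.12, adjusted p = 0.00645). With sorafenib alone IRF5 stood at 11.56, 11.34 and 11.11, and in controls at 11.65, 11.49 and 11.76. ERICH3 was lost without givinostat A (adjusted p = 0.0506), HEPACAM2 without givinostat A or C or combination A or B (up to 0.081), and MIR503HG without any 1 of the compared arrays but givinostat B (up to 0.0978).

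**Figure D3:**
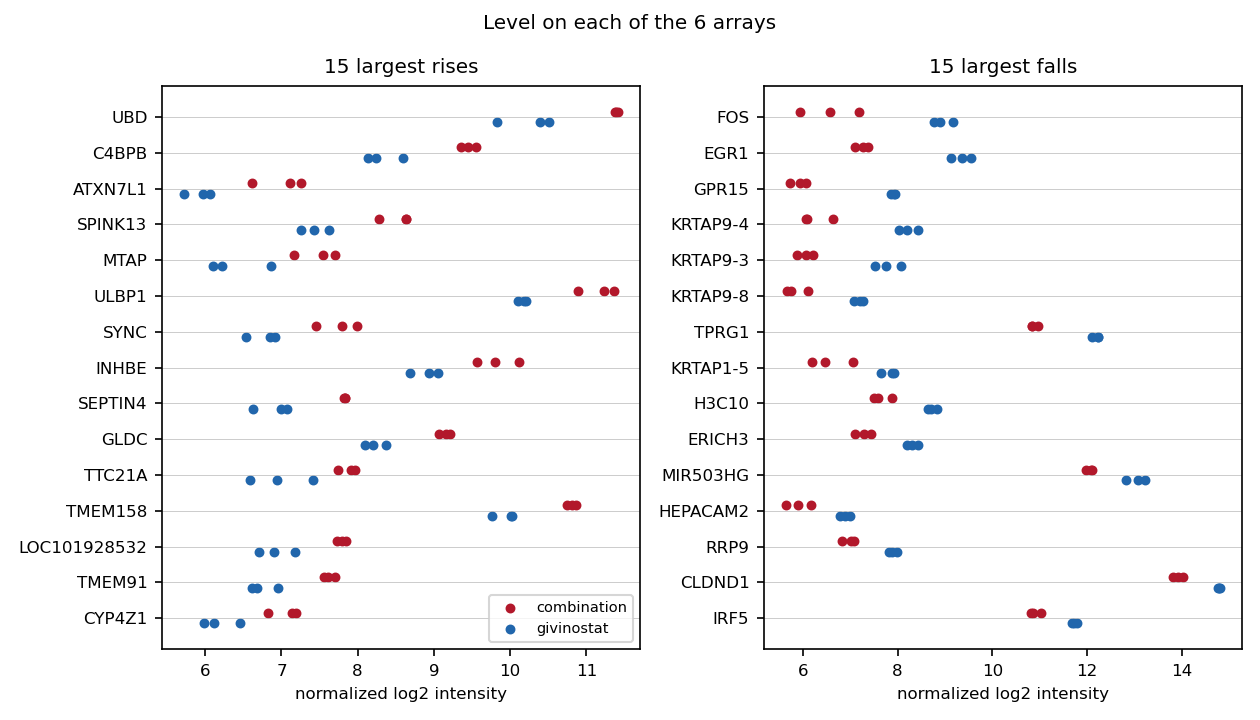
Normalized log2 intensity on the 3 combination and 3 givinostat arrays for the 15 genes with the largest rise (left) and the 15 with the largest fall (right). Points are arrays, and in no gene shown do the groups overlap, which the choice of these genes required.

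Genes of the integrated stress and amino acid response were prominent among the rises. Of 32 tested, 6 rose and 0 fell, beside 0.845% higher over all genes. A positive value was seen in 29 (47.2% of all genes), and the list median was 0.36 beside -0.01 over all genes. The 6 were INHBE, CTH, DDIT3, PSAT1, VLDLR and ASNS. Promoters of ASNS and the alanyl-tRNA synthetase gene AARS1 are shown, among the 5 genes that rose and hold the searched motif TGATGNAAN. These are the letters of the C/EBP-ATF response element to which ATF4 binds. Windows of the other such genes are not shown. Capitals mark the match, which in AARS1 lies on the opposite strand, and the windows are cut as above (RefSeq, GRCh38.p14).

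ASNS (chr7:97872359-97872658, - strand): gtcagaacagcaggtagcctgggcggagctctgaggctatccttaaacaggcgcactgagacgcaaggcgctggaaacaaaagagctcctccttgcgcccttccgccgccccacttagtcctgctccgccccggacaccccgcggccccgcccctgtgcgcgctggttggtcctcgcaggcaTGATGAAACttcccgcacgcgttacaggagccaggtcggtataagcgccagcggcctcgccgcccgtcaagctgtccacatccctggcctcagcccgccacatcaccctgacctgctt

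AARS1 (chr16:70289457-70289756, - strand): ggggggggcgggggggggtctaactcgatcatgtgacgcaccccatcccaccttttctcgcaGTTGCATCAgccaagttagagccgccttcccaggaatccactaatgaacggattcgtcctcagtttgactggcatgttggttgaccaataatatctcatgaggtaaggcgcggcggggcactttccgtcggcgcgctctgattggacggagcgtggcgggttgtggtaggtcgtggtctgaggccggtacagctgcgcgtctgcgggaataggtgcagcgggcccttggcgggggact

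The first base of the match lies 68 bases before the start in ASNS and 188 before it in AARS1. The motif, searched on both strands, was in 3.67% of all 27305 promoters and in 1.97% of the 8661 promoters of genes tested. It was in 5 of the 76 promoters of genes higher in the combination (AARS1, ASNS, GADD45G, LORICRIN and MARS1) and in 0 of the 43 of genes lower. Of 26 stress response genes with a promoter in the table it was in 7, of which ASNS alone passed the test. A match is a description of letters and not of binding.

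PSAT1, the phosphoserine aminotransferase gene of serine synthesis, had the smallest p among genes that rose. It stood at 12.30, 12.38 and 12.43 in the combination against 11.58, 11.62 and 11.65 with givinostat, with little spread in either group (log2 change 0.76 ± 0.08, adjusted p = 0.00139). With sorafenib alone it stood at 12.90, 12.80 and 13.01, and in controls at 11.81, 11.78 and 11.82. CTH, the cystathionine lyase gene that makes cysteine, stood at 11.47, 11.33 and 11.27 in the combination against 10.63, 10.51 and 10.39 with givinostat (log2 change 0.85 ± 0.11, adjusted p = 0.00376). ASNS, the asparagine synthetase gene, stood at 14.32, 14.33 and 14.40 against 13.62, 13.73 and 13.65 (log2 change 0.69 ± 0.09, adjusted p = 0.00527). A second ASNS probe gave 0.91. VLDLR, a lipoprotein receptor gene, rose by 0.76 ± 0.10 (adjusted p = 0.00424). The calls of PSAT1, CTH, ASNS and VLDLR held in all alternative settings run.

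DDIT3, which encodes the stress transcription factor CHOP, stood at 9.30, 9.37 and 9.33 in the combination against 8.65, 8.65 and 8.16 with givinostat (log2 change 0.85 ± 0.15, adjusted p = 0.0179), a call lost without givinostat C or combination A, B or C (adjusted p up to 0.0746). INHBE, an activin subunit gene, stood at 10.12, 9.57 and 9.80 against 8.68, 9.06 and 8.94 (log2 change 0.94 ± 0.20, adjusted p = 0.0377), a call lost in 12 of 22 alternatives, among them without any 1 of the 6 compared arrays, control A, sorafenib A or sorafenib B (adjusted p up to 0.136). ATF4 itself had a positive value that did not pass (0.40 ± 0.10, adjusted p = 0.0688), as had SLC7A11, the cystine transporter gene (0.50), and CHAC1, a glutathione-degrading enzyme gene (0.41). DDIT4 (-0.25), ALDH18A1 (-0.10) and JDP2 (-0.08) were the 3 genes of the list with a negative value. GLDC, the glycine cleavage enzyme gene outside this list, rose by 0.92 ± 0.12 (adjusted p = 0.00376). With sorafenib alone against control, 12 of the 32 rose and 0 fell (median 0.41), and 11 rose without sorafenib array C (median 0.39). The share of all genes higher with sorafenib alone was 2.99%.

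Of 18 cytosolic aminoacyl-tRNA synthetase genes, which charge transfer RNAs with amino acids, 2 rose and 0 fell (median 0.18). The share higher over all genes was 0.845%. MARS1, the methionyl enzyme, rose by 0.63 ± 0.12 (adjusted p = 0.022) and AARS1 rose by 0.52 ± 0.10 (adjusted p = 0.025). MARS1 stood at 11.18, 11.18 and 11.23 in the combination against 10.74, 10.59 and 10.36 with givinostat. MARS1 was lost without any 1 of the compared arrays but givinostat A, and AARS1 without any 1 of them but givinostat B (adjusted p up to 0.106). Both were also lost with only the 6 compared arrays, and AARS1 with median scaling and with no detection filter. The unfolded protein response of the endoplasmic reticulum, a neighbouring stress pathway, had 0 of 21 genes past the threshold (median -0.14), and the heat shock and chaperonin list had 0 of 28 (median -0.16).

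**Figure D4:**
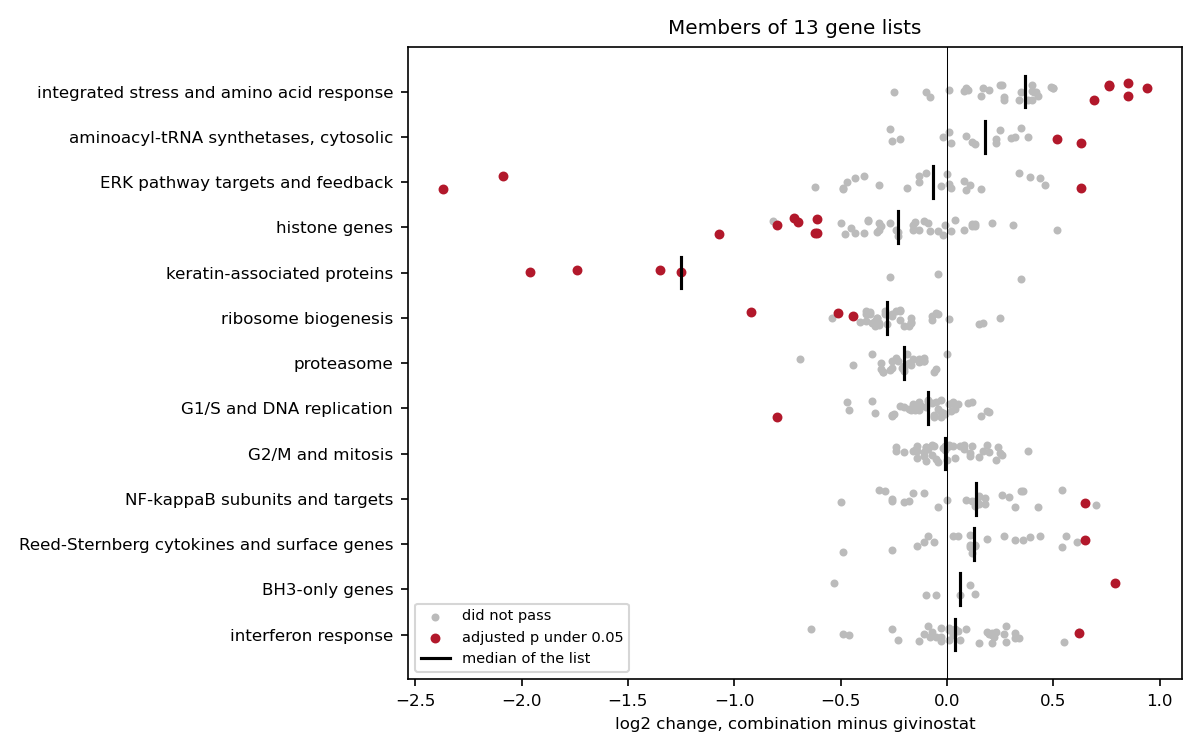
Log2 change (combination minus givinostat) of each tested member of 13 gene lists, with members at an adjusted p under 0.05 in red and the list median as a black bar. The integrated stress and amino acid response list lies to the right of 0, with a median of 0.36. The medians of the keratin-associated protein, ribosome biogenesis, histone and proteasome lists lie to the left. All lists were chosen with earlier results of these data known.

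UBD and C4BPB had the largest rises. UBD, a ubiquitin-like modifier gene induced by interferon gamma and tumour necrosis factor, stood at 11.42, 11.39 and 11.38 in the combination against 10.39, 10.51 and 9.83 with givinostat. It was 2.22-fold higher (log2 change 1.15 ± 0.19, adjusted p = 0.0151), a call lost without combination A, B or C (adjusted p up to 0.0644). C4BPB, which encodes a chain of the complement regulator C4b-binding protein, stood at 9.55, 9.45 and 9.36 against 8.24, 8.59 and 8.14 (log2 change 1.13 ± 0.16, adjusted p = 0.00646). ULBP1, a ligand of the natural killer cell receptor NKG2D, stood at 10.89, 11.23 and 11.36 against 10.10, 10.21 and 10.18 (log2 change 1.00 ± 0.13, adjusted p = 0.00376). ULBP1 stood at 10.39, 10.40 and 10.19 with sorafenib alone and at 9.51, 9.40 and 9.72 in controls, so that each combination array lay above all others. SPINK13, a protease inhibitor gene, rose by 1.08 ± 0.14 (adjusted p = 0.00479), or by 0.62 without background correction.

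TMEM158, a gene first described as induced by oncogenic RAS, stood at 10.81, 10.86 and 10.75 in the combination against 9.76, 10.01 and 10.02 with givinostat (log2 change 0.88 ± 0.12, adjusted p = 0.00527). Its level was 8.66, 8.87 and 8.83 with sorafenib alone and 7.86, 7.91 and 8.27 in controls. SEPTIN4, a septin GTPase gene, stood at 7.84, 7.82 and 7.83 in the combination against 7.07, 7.0 and 6.63 with givinostat (log2 change 0.93 ± 0.12, adjusted p = 0.00479). In each group without givinostat it was above background on 0 of 3 arrays. TMEM91 rose by 0.87 ± 0.12 (adjusted p = 0.00645). ATXN7L1, with 3 of 3 combination and 0 of 3 givinostat arrays above background, was at least 1.67-fold higher (adjusted p = 0.015). MTAP, the salvage enzyme of methylthioadenosine, rose by 1.08 ± 0.21 (adjusted p = 0.0264), with 1 of 3 givinostat arrays above background. Without background correction SEPTIN4 rose by 0.43, TMEM91 by 0.38, ATXN7L1 by 0.41 and MTAP by 0.44.

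The other genes among the 15 largest rises were SYNC, an intermediate filament protein gene (0.98), TTC21A (0.89), the unnamed locus LOC101928532 (0.87) and the cytochrome P450 gene CYP4Z1 (0.87). ATXN7L1 was lost without givinostat A or combination A or B, MTAP also without givinostat C, SYNC without givinostat A or C or combination B or C, and CYP4Z1 without givinostat B or C or combination A or C (adjusted p up to 0.107). MTAP was also lost with no detection filter and with only the 6 compared arrays. CYP4Z1 was also lost with only the 6 arrays, with the authors' table and without background correction, where its value was 0.33. Without background correction SYNC rose by 0.44, TTC21A by 0.42 and LOC101928532 by 0.40. LOC101928532 was lost with no detection filter, with the array letter as a block and without any 1 of the 6 compared arrays (adjusted p up to 0.104). TTC21A was lost without any 1 of them but givinostat C, without control A, sorafenib A or sorafenib B, with no detection filter, with only the 6 arrays and with the array letter as a block (adjusted p up to 0.132).

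The NF-kappaB, Reed-Sternberg and interferon lists each held a single gene that passed, with 0.845% of all genes higher. Of 28 NF-kappaB subunit and target genes, NFKBIA rose and 0 fell (median 0.14). NFKBIA, the inhibitor of NF-kappaB that is itself an NF-kappaB target, stood at 10.96, 10.70 and 11.07 in the combination against 10.28, 10.20 and 10.29 with givinostat (log2 change 0.65 ± 0.14, adjusted p = 0.0382). Both groups lay below sorafenib alone (12.31, 11.92 and 12.20) and controls (11.81, 11.96 and 12.22). Of 24 Reed-Sternberg cytokine and surface genes, TNFRSF9, a costimulatory receptor gene, rose by 0.65 ± 0.12 (adjusted p = 0.025) and 0 fell (median 0.13). TNFRSF8, the gene of CD30, a surface marker of Hodgkin lymphoma, had overlapping arrays, at 7.01, 6.91 and 6.83 in the combination and 7.03, 6.91 and 7.61 with givinostat (log2 difference -0.26 ± 0.22, adjusted p = 0.591). Of 41 interferon response genes, ISG20, an exonuclease gene, rose by 0.62 ± 0.09 (adjusted p = 0.00645) and 0 fell (median 0.04). NFKBIA was lost without any 1 of the 6 compared arrays or control B (adjusted p up to 0.141), and TNFRSF9 without any 1 of the 6 but givinostat B (up to 0.106). Both were also lost with no detection filter, and NFKBIA with only the 6 compared arrays.

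Among genes of cell death, PMAIP1 rose, with 0.845% of all genes higher. Of 7 BH3-only genes, which trigger mitochondrial apoptosis, PMAIP1, also known as NOXA, stood at 10.85, 11.01 and 11.19 in the combination against 10.14, 10.13 and 10.40 with givinostat, and 0 fell. Its log2 change was 0.79 ± 0.12 (adjusted p = 0.00833), and it missed the threshold without givinostat A (adjusted p = 0.053). BCL2L11, which encodes BIM, stood at 7.52, 7.35 and 7.52 in the combination and 7.79, 7.59 and 7.31 with givinostat, with overlap (log2 difference -0.10 ± 0.21, adjusted p = 0.854). A second BCL2L11 probe had -0.92 ± 0.34 and did not pass in a fit by probe (adjusted p = 0.205). BMF, another BH3-only gene, had a value of -0.53 that did not pass. Of 8 BCL2 survival and effector genes, 13 death receptor and necroptosis genes and 15 caspase and inhibitor genes, 0 passed. Of 18 p53 targets, GADD45A, a growth arrest gene, rose by 0.48 ± 0.10 (adjusted p = 0.0411), a call lost in 14 of 22 alternatives, among them without each array but control B and sorafenib C in turn (adjusted p up to 0.149).

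Of 8 metallothionein and zinc genes, SLC30A1, a zinc exporter gene, fell by 0.58 ± 0.10 (adjusted p = 0.022) and 0 rose. The share lower over all genes was 0.494%. SLC30A1 was lost without any 1 of the compared arrays but givinostat B, with only the 6 compared arrays and with the mean of its probes (adjusted p up to 0.0997). A second SLC30A1 probe had -0.26 ± 0.12 and did not pass in a fit by probe (adjusted p = 0.335). Among 23 genes that histone deacetylase inhibitors are known to raise widely, 0 passed (median 0.10). SELENOP, a plasma selenium carrier gene, was high in both givinostat groups, at 10.08, 10.13 and 10.25 in the combination and 9.99, 9.73 and 9.87 with givinostat, against 6.41, 7.03 and 6.44 with sorafenib alone and 5.66, 5.98 and 5.60 in controls. Its log2 difference over givinostat did not pass (0.29 ± 0.16, adjusted p = 0.382). In 27 of the 41 pathway lists, among them oxidative phosphorylation (66 genes), glycolysis and hypoxia (29), lysosome (28), autophagy (30), cholesterol synthesis (18), JAK-STAT (23), MHC class I (14) and class II (11), 0 genes passed.

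The changes that sorafenib made over givinostat were set beside those it made over control, which come from other arrays. With sorafenib alone, 482 genes passed (4.58%), 315 higher (2.99%) and 167 lower (1.59%), and the count was 247 without sorafenib array C. Of the 141 genes changed over givinostat, 125 had the same sign with sorafenib alone (88.7%), as did 60.8% of all genes. Of the 141, 62 were also changed with sorafenib alone, all in the same direction, which is 44% of the 141 and 12.9% of the 482. Some of the 141, among them GPR15, ERICH3, HEPACAM2 and SEPTIN4, were above background on 0 of 3 sorafenib and 0 of 3 control arrays. Their sign with sorafenib alone is therefore not a measured change, and GPR15 is among the 62. Without sorafenib array C, 125 of the 141 again had the same sign, beside 59.4% of all genes, and 46 were also changed with sorafenib alone, all in the same direction. Across all 10529 genes, the log2 changes in the 2 settings had a Pearson correlation of 0.355 and a Spearman correlation of 0.312 (0.336 and 0.292 without sorafenib array C). These describe genes, which are not independent replicates, and all 12 arrays were normalized together. Of the 482 genes changed with sorafenib alone, 409 had the same sign over givinostat (84.9%), and also 409 without sorafenib array C. Their median change in their own direction was 0.23 log2 units over givinostat, against 0.55 with sorafenib alone, where they were chosen.

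Whether a change over givinostat differed from that over control was tested as an interaction, which 2 of 10529 genes passed (0.019%). At an unadjusted p under 0.05 there were 1150, and the median SE of this difference was 0.18, so that small differences were not detectable. GPR15 was the first (-1.45 ± 0.17, adjusted p = 0.0148), though the combination, sorafenib and control groups were all not above background, so that the size of this difference was not measurable. RRAD, which encodes a RAS-related GTPase, was the other (0.92 ± 0.12, adjusted p = 0.033). RRAD stood at 10.28, 10.40 and 10.48 in the combination and 10.20, 10.19 and 10.25 with givinostat (log2 difference 0.17 ± 0.09, adjusted p = 0.323). It stood at 11.16, 11.31 and 11.15 with sorafenib alone and at 11.91, 11.95 and 11.98 in controls, a fall of 0.74 ± 0.09 (adjusted p = 8.24e-04), or 0.71 without sorafenib array C. Neither interaction was stable. That of GPR15 was lost without combination B, combination C, any 1 of the 3 givinostat arrays, sorafenib C or control A (adjusted p up to 0.0819). It was also lost without background correction, with the authors' table and with the array letter as a block. The interaction of RRAD held without sorafenib B but was lost without any other single array, with no detection filter, with the mean of its probes and with the array letter as a block (adjusted p up to 0.172).

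**Figure D5:**
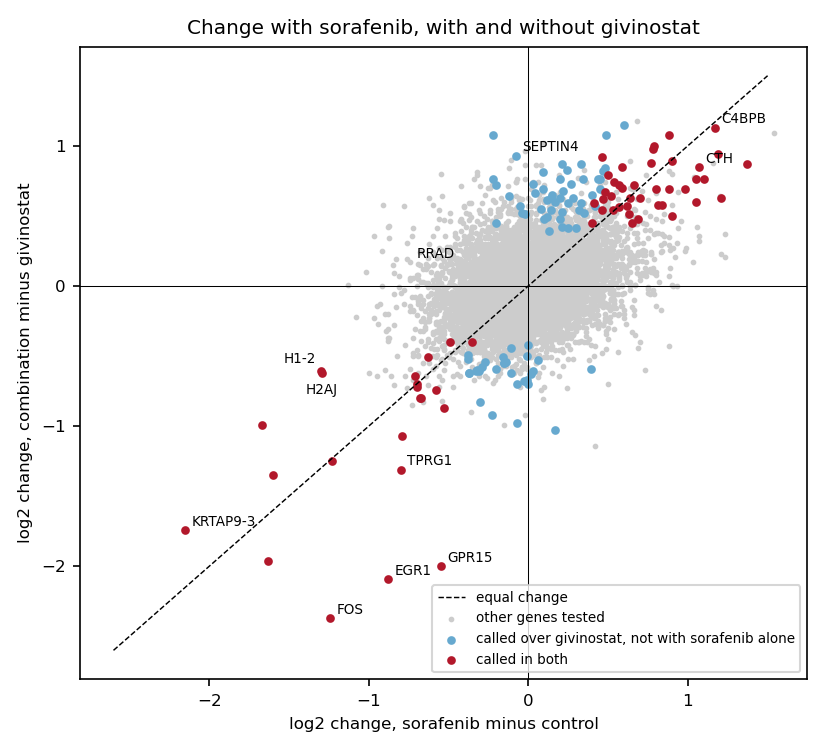
Each point is 1 of the 10529 genes, with its log2 change with sorafenib alone (sorafenib minus control) on the x axis and with sorafenib over givinostat (combination minus givinostat) on the y axis. The dashed line marks equal change, and the 62 genes changed in both settings lie at the lower left and upper right.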

How the data were processed

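Total RNA of HDLM-2 cells was labelled with biotin for Illumina bead arrays, per the labels; the signals were read with BeadStudio, per the submitters' processing notes, with no version given there. The deposited non-normalized file holds a bead-averaged intensity per probe and array (48803 probes, 12 arrays, 69.7 to 72773 units). The fraction beside each intensity, called a detection p per the file headers, rose with intensity on every array (lowest Spearman correlation 0.992) and was read as 1 minus the detection p. The authors' processed table holds linear intensity that matched a quantile normalization of those intensities within 0.217 units at the 99th percentile of the differences and served as an alternative.

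Intensities were background-corrected by normexp from the detection p-values (offset 16), quantile normalized and log2-transformed with limma 3.58.1 (R 4.3.3, statmod 1.5.0, and the data.table package, version 1.17.8). Probes were kept that had a detection p under 0.05 on every array of 1 or more groups (16927 probes). Of those, 14039 had 1 gene symbol in the supplied platform annotation and 2888 did not; the probe with the highest mean stood for its gene. Symbols were updated by Entrez identifier (28059 of 28098 matched). Group means were fitted over all 12 arrays (lmFit and eBayes, 8 residual and 4.04 prior degrees of freedom), and two-sided p-values were adjusted by Benjamini-Hochberg over 10529 genes. A fold with 1 group not above background on any array is a lower bound against the background limit. In 49 of 2759 genes with several probes, some probes were called and others not; in 0 they were called in opposite directions.

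Named genes are the 15 largest rises and falls among called genes without overlap, the called interactions, up to 4 members of each list by p, and BCL2L11, CDKN1A, TNFRSF8, MKI67, MYC, ASNS, SELENOP, FOS and EGR1. Other list members and the genes named under the other observations were chosen after their values were seen. The comparison, gene lists and markers were chosen with earlier results of these data known. Alternatives were the authors' table, no background correction, median scaling, 3 other detection filters, the 6 compared arrays alone, the array letter as a block, array weights, the mean of a gene's probes and each array left out. The statistics were tested on simulated data. The genome build of the probes is not given in the sources used here, and the slide of an array is not known, so the slide could not be used as a block.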

Additional observations from a re-analysis of the deposited data

Results flagged for a closer look

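For 2 genes the fitted change with sorafenib in the presence of givinostat differed from that in its absence by the test of that difference over all genes. For GPR15 the fitted difference was -1.45 on the log2 scale, but the combination, sorafenib and control groups were above background on 0 of 3 arrays each, so the size of the difference was not measurable and the fall over givinostat is known only as at least 3.44-fold. For RRAD the difference was 0.92, with a value of 0.17 ± 0.09 over givinostat and a fall with sorafenib alone (-0.74 ± 0.09). Groups of 3 arrays are too small for a test of single outlying arrays.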

How the results depend on the processing

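All 141 genes changed over givinostat kept their direction under every setting in which they were tested, except 1 with the mean of a gene's probes. The number of genes that passed was 306 with the authors' table and also without background correction, 358 with array weights, 68 with no detection filter and 83 with only the 6 compared arrays, and 32 to 231 with 1 array left out. The count of fitted changes of at least 2-fold was 15, but 6 among genes detected on all 12 arrays. It was 4 with the authors' table or without background correction, since log2 changes of dim genes shrink when background is left in. With sorafenib alone 482 genes passed, but 214 with no detection filter, and 164 to 417 with 1 array left out. The interaction count was 2, but 8 with the authors' table and without background correction, 1 with no detection filter, on genes detected on all 12 arrays and with the mean of probes, and 0 to 2 with 1 array left out. With the array letter as a replicate block, 131 genes passed over givinostat, 420 with sorafenib alone and 0 in the interaction. The letters were not taken as pairs: same-letter deviations of the combination and givinostat arrays correlated at 0.0542, 0.0224 and 0.123. The slide as a block was not run, since the slides are not known. Median scaling gave 130 genes, 58.5% of them higher, against 63.1%. Signal limits the dim genes: 126 of the 141 were above background on all 6 arrays.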

Other observations

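Some genes changed over givinostat belong to none of the lists described, and the following were chosen after their values were seen. CD44, a receptor for hyaluronan, stood at 13.64, 13.41 and 13.59 normalized log2 units in the combination against 12.83, 12.89 and 12.76 with givinostat (log2 change 0.72 ± 0.09 SE, adjusted p = 0.00302), and its call held in all 22 alternative settings. VCAM1, another adhesion gene, rose by 0.64 ± 0.11 (adjusted p = 0.0167), a call lost without givinostat A or C or combination B or C (adjusted p up to 0.0785). RUNX2, a transcription factor gene of bone and lymphoid cells, stood at 10.48, 10.50 and 10.44 in the combination against 10.95, 11.02 and 11.03 with givinostat (log2 change -0.53 ± 0.08, adjusted p = 0.00731), with 10.04, 10.10 and 10.14 with sorafenib alone and 10.08, 10.06 and 9.97 in controls. ID1, an inhibitor of basic helix-loop-helix factors, fell by 0.74 ± 0.13 (adjusted p = 0.0167), a call lost without givinostat A or C or combination A or B and with the mean of its probes (adjusted p up to 0.0785). A second ID1 probe had -0.53 ± 0.25 and did not pass (adjusted p = 0.312).

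Of the lists of lipid metabolism, fatty acid synthesis and desaturation had 0 of 8 genes past the threshold (median -0.05, 5 negative) and cholesterol synthesis and uptake 0 of 18 (median -0.04). Outside them, 2 genes of fatty acid metabolism rose and were likewise chosen after their values were seen. ACSL1, which activates long-chain fatty acids, averaged 11.68 ± 0.13 in the combination and 11.04 ± 0.07 with givinostat (SD, n = 3 arrays per group, no overlap; log2 change 0.64 ± 0.09, adjusted p = 0.00668). ACACB, an acetyl-CoA carboxylase gene, rose by 0.68 ± 0.11 (adjusted p = 0.0167), a call lost without givinostat A or C and with only the 6 compared arrays (adjusted p up to 0.0785). Neither passed with sorafenib alone (-0.12 for ACSL1, adjusted p = 0.516, and 0.22 for ACACB, adjusted p = 0.302), and the difference between the settings is not among those that passed.

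Of the 2888 detected probes without 1 gene symbol in the annotation, 39 changed over givinostat in a fit by probe, 22 higher and 17 lower, beside 164 of the 14039 probes with a symbol.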
